A study of Mus musculus with 19 samples.

Results

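The contractile genes of smooth muscle were followed in 3 sorted cell populations of the mouse prostate. The set was 10 genes taken by name from the 24343 gene symbols of the deposited tables, namely Acta2, Actg2, Myh11, Myl9, Mylk, Tagln, Cnn1, Tpm2, Lmod1 and Des, and all 10 were found, with 13 of the 34535 transcripts. RNA had been sequenced from basal, luminal and stromal cells sorted by flow cytometry from anterior prostates. Mice of the first group carried Lgr5-DTR-eGFP, which places the diphtheria toxin receptor and a green fluorescent protein under control of Lgr5, and had been given diphtheria toxin to kill cells that express Lgr5. This group, called Lgr5-DTR below, gave 4 stromal, 3 basal and 3 luminal libraries. Controls were wild type mice, with 3 libraries of each population. The labels name C57BL/6 mice bought from a breeder and Lgr5-DTR-eGFP mice obtained through another laboratory, so genotype, toxin and origin change together and cannot be told apart. Whether wild type mice also received toxin, the ages, and the dose and timing of the toxin are not given in the sources used here. Nor is it stated that each library came from a separate animal, so the p-values measure how these libraries vary, and some of that variation may be technical. The series asks how the 3 populations change once Lgr5-expressing stromal cells are ablated.

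The libraries held 5.26 to 9.38 gigabases on annotated transcripts, and 9209 to 10819 genes reached 1 FPKM, a level scaled to the length of the transcript and the number of mapped fragments. Lgr5 itself lay between 25.8 and 77.6 FPKM in the 3 wild type stromal libraries and between 0.501 and 1.32 FPKM in the 4 Lgr5-DTR stromal libraries. Each population carried its defining markers. In wild type libraries the fibroblast gene Pdgfra had a mean of 48.9 FPKM in stromal cells and 0.228 FPKM in basal cells, and the basal keratin gene Krt5 had a mean of 347 FPKM in basal cells, 5.16 FPKM in luminal cells and 1.5 FPKM in stromal cells. A higher or lower value in sorted bulk RNA can come from more or fewer cells of a type or from more or less RNA per cell, and these cannot be told apart here.

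Smooth muscle contracts when calcium and calmodulin activate myosin light chain kinase, the product of Mylk. The kinase phosphorylates the regulatory light chain, to which Myl9 contributes, on the smooth muscle myosin heavy chain encoded by Myh11. The myosin pulls on thin filaments built from the actins of Acta2 and Actg2, which carry the tropomyosin of Tpm2 and the actin-binding proteins calponin (Cnn1) and transgelin (Tagln). Leiomodin (Lmod1) nucleates actin filaments, and desmin (Des) forms the intermediate filaments that link the contractile units. In the prostate these genes mark the smooth muscle sheath around the ducts, and several of them are also used by myofibroblasts, pericytes and contractile basal-type epithelia of other glands. Many of the genes are controlled by serum response factor (SRF) and its cofactors of the myocardin family, which act through a DNA element called the CArG box.

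The upstream sequences of 3 members are shown because their genes differ in pattern below. For Acta2 and Myl9 the difference between the stromal and the basal response passed a test, while Tpm2 was highest in basal cells. That difference was known as a trend in these data when the genes were named, so the test is no independent evidence of it. In 1 fit over all 6 groups neither gene passed. Whether the sequences bear on these patterns was not tested. Each run is the 250 bases before the annotated start, 5′ to 3′ on the strand of the gene, from RefSeq on GRCm38.p6, at chr19:34255374-34255623 on the minus strand for Acta2, chr2:156775214-156775463 on the plus strand for Myl9 and chr4:43523555-43523804 on the minus strand for Tpm2. Capitals mark CArG boxes of 10 bases, read on both strands as CC, then 6 bases that are A or T, then GG, or the same with 1 of the 6 replaced by G or C.
Acta2: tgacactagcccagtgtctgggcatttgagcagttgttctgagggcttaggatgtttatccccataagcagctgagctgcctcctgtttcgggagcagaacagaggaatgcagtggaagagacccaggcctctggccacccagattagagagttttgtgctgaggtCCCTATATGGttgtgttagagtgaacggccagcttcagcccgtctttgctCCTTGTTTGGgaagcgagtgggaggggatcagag
Myl9: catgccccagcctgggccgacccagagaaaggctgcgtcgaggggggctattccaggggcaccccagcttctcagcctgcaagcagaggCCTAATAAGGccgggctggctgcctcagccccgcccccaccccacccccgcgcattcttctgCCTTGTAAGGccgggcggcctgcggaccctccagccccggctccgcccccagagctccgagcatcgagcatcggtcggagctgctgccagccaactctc
Tpm2: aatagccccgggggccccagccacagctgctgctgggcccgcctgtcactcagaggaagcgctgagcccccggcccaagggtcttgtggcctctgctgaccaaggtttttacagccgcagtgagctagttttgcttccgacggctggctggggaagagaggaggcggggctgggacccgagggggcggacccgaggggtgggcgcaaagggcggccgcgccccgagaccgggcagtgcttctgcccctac
The Myl9 window held 1 exact CArG box, CCTAATAAGG, 161 to 152 bases before the start, and 1 with a replaced base, CCTTGTAAGG, 99 to 90 bases before it. The Acta2 window held 2 with a replaced base, CCCTATATGG at 84 to 75 and CCTTGTTTGG at 34 to 25 bases before the start. No match of either kind lay in the Tpm2 window. Of the 10 members, 7 had an entry in the sequence table, and the windows of Cnn1, Des, Lmod1 and Mylk held none. Among 32536 distinct windows of the same length over all genes, 1.48% held an exact CArG box and 7.23% one with a replaced base. The MCAT element bound by TEAD factors, CATTCC or its reverse complement GGAATG, was in the windows of Acta2, Lmod1 and Mylk and in 12.6% of all windows. It overlapped no CArG match. The genes themselves span chr19:34240336-34255373 (Acta2), chr2:156775464-156781657 (Myl9) and chr4:43513726-43523554 (Tpm2) on mm10. Tagln, Myh11 and Actg2 had no entry.

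In wild type mice every stromal library was above every basal and luminal library for 7 of the 10 genes, namely Acta2, Tagln, Cnn1, Myl9, Actg2, Des and Mylk. Of 11571 genes with at least 3 wild type libraries at 1 FPKM, which include 9 of the 10, 19.6% had the same pattern. The comparison places the genes among the populations before any change of genotype. Acta2, the smooth muscle alpha actin, had 107, 73.8 and 67.0 FPKM in the 3 wild type stromal libraries, 3.30, 3.00 and 5.17 FPKM in the basal libraries and 6.49, 24.7 and 21.9 FPKM in the luminal libraries. Des had 60.9, 63.5 and 91.9 FPKM in stromal cells and at most 0.391 FPKM in basal and 2.70 FPKM in luminal cells. The gap between stromal and epithelial cells was, as a ratio of means, the widest of the 10 genes for Des. Tagln had 96.8, 49.0 and 50.4 FPKM in stromal cells and 34.4, 28.6 and 23.4 FPKM in basal cells, so that basal cells held a clear level of this transcript.

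**Figure D1:**
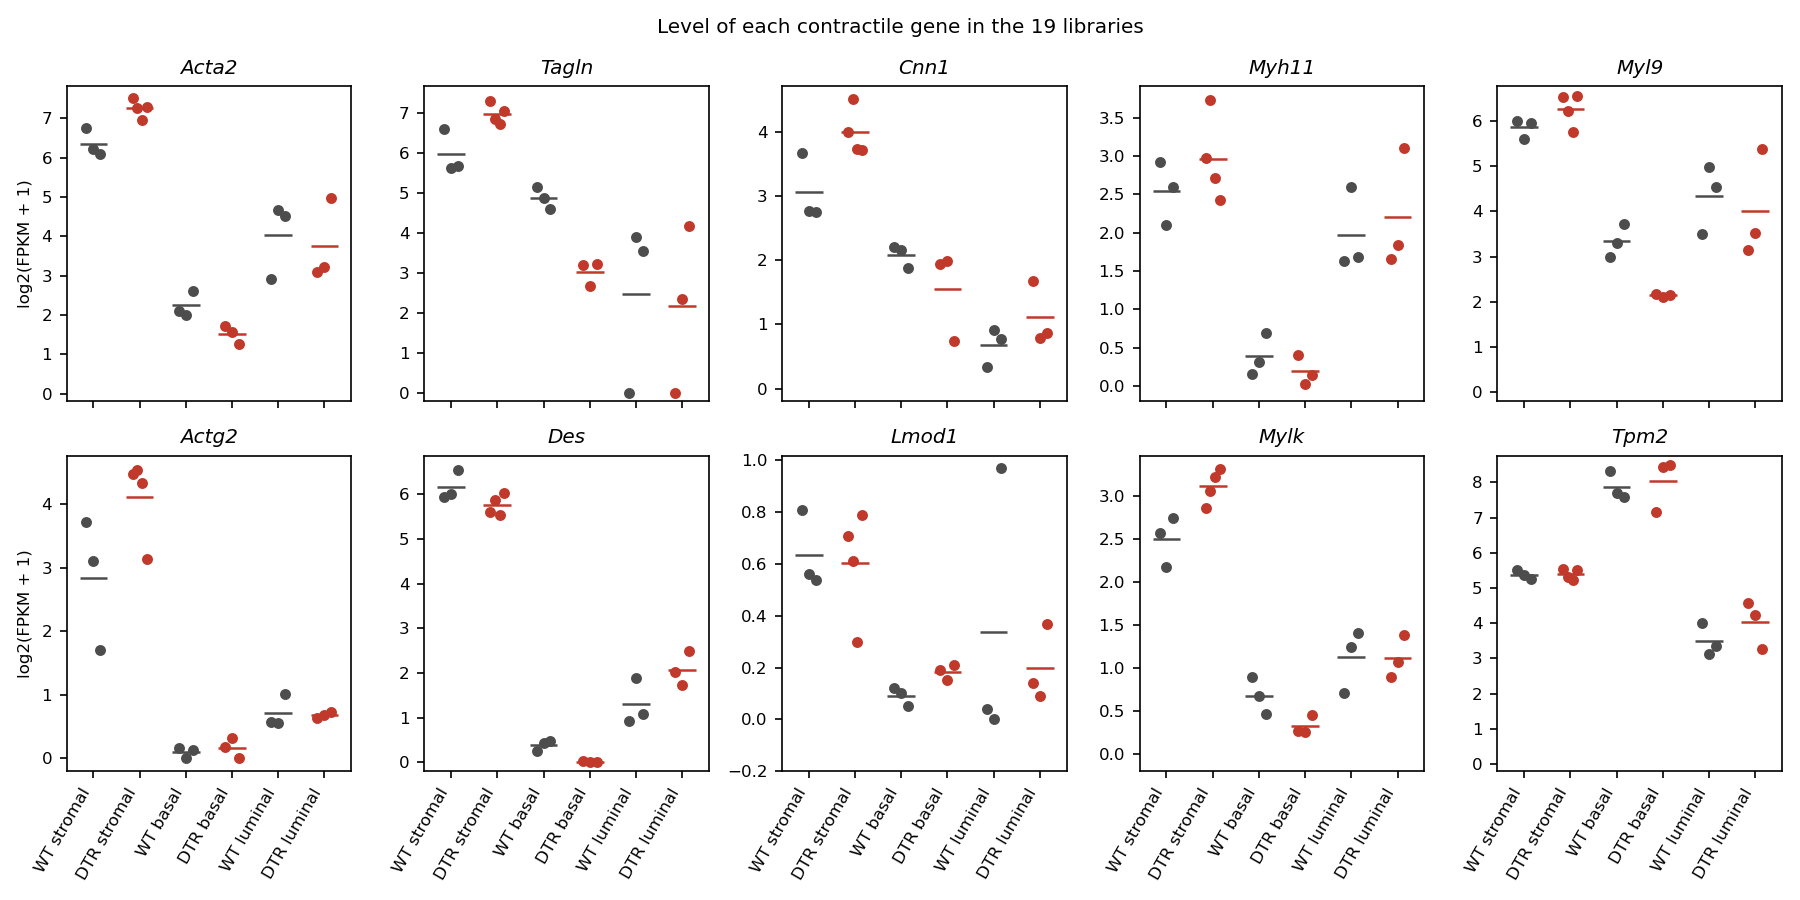
FPKM of each contractile gene in every library (log2(FPKM + 1) on the vertical axis, 1 panel per gene), by population and group, where WT stands for wild type and DTR for Lgr5-DTR; points are libraries and horizontal lines are group means on that scale. Tpm2 is the gene whose basal libraries lie above its stromal ones, and Lmod1 stays below 1 FPKM in all 19 libraries.

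Tpm2, which encodes the beta chain of tropomyosin, reversed that order. Its values were 317, 205 and 191 FPKM in wild type basal libraries, 44.5, 40.5 and 37.5 FPKM in stromal libraries and 15.3, 7.76 and 9.17 FPKM in luminal libraries, with no overlap between basal and stromal cells. In wild type basal cells Tpm2 alone made up 80.9% to 86.4% of the summed FPKM of the 10 genes, against 10.9% to 13.7% in stromal cells. By mean FPKM, the order in wild type stromal cells was Acta2 (82.6 ± 21.5, SD, n = 3), Des (72.1 ± 17.2), Tagln (65.4 ± 27.2), Myl9 (57.4 ± 8.49) and Tpm2 (40.8 ± 3.51), followed by Cnn1 (7.76 ± 3.45), Actg2 (7.34 ± 4.96), Myh11 (4.97 ± 1.65) and Mylk (4.74 ± 1.10), with Lmod1 last (0.561 ± 0.167). Neighbours among the first 4 overlapped in range, as did neighbours from Cnn1 to Mylk, while Tpm2 and Lmod1 overlapped neither neighbour. Heavy chain and kinase transcripts thus lay below those of alpha actin and transgelin on this length-scaled measure. In wild type basal cells the order was Tpm2 (238 ± 69.2), Tagln (28.8 ± 5.54), Myl9 (9.36 ± 2.66), Acta2 (3.82 ± 1.18) and Cnn1 (3.26 ± 0.521), of which Acta2 and Cnn1 overlapped. In wild type luminal cells Myl9 (21.2 ± 10.2) and Acta2 (17.7 ± 9.82) came first and overlapped each other.

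Limma was fitted over all genes on log2(FPKM + 1), and a gene was called at a Benjamini-Hochberg adjusted p under 0.05. Between wild type stromal and basal cells 9 members were tested, of which 8 were called higher in stromal cells, where 30.1% of all tested genes were, and Tpm2 was called lower, as were 28.9%. The log2 difference was 5.79 for Des, 4.11 for Acta2, 2.74 for Actg2, 2.52 for Myl9, 2.15 for Myh11, 1.82 for Mylk, 1.10 for Tagln, 0.98 for Cnn1 and -2.48 for Tpm2. Of the 9 tested members, 4 reached 1 FPKM only in stromal cells and so had to differ. Between wild type stromal and luminal cells 8 of 9 tested members were called higher in stromal cells, where 27.8% of tested genes were, led by Des (4.87) and Tagln (3.49, SE 1.13). Cnn1 reached 1 FPKM in stromal cells alone and had to differ. The call of Tagln, whose luminal values include a library listed at 0, was lost without any 1 of the stromal libraries (limma adjusted p of 0.127 to 0.150), with a pseudocount of 0.1 (0.113) and with a mean of at least 5 FPKM, and that of Tagln against basal cells in 1 fit over all 6 groups (0.324). Myh11 did not pass, with a log2 difference of 0.57 (limma adjusted p = 0.132) and luminal values of 2.10, 5.06 and 2.20 FPKM that overlapped the stromal 6.57, 3.28 and 5.06 FPKM, though it passed with median-ratio scaling (0.0480). Between wild type basal and luminal cells 6 members were tested and 5 called, where 68.8% of tested genes were called. Tpm2 (4.36) and Cnn1 (1.41) were higher in basal cells, while Acta2 (-1.79), Myh11 (-1.58) and Myl9 (-1.01) were lower. Cnn1 and Myh11 reached 1 FPKM in 1 of the 2 populations alone and had to differ. Myl9 lost its call with no filter on low values and with either scaling (limma adjusted p of 0.0780 to 0.0939), and without wild type basal replicate 1 or 2 or luminal replicate 2 or 3 (0.0788 to 0.118). Acta2 lost its call without wild type basal replicate 1 (0.0550).

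In stromal cells of Lgr5-DTR mice the log2 difference from wild type was above 0 for 8 of the 9 tested contractile genes, and none passed the test (0 of 9, where 1.17% of all tested genes were called). The actins, calponin, transgelin and the kinase had the larger differences, Tpm2 had almost none, and Des lay below. Acta2 had 181, 152, 123 and 156 FPKM in the 4 Lgr5-DTR stromal libraries, and each of these was above the 107, 73.8 and 67.0 FPKM of wild type. Its mean ratio was 1.85, and its log2 difference was 0.90 (SE 0.22, limma adjusted p = 0.0924). Tagln had 159, 115, 105 and 133 FPKM in Lgr5-DTR against 96.8, 49.0 and 50.4 FPKM in wild type, again without overlap. The log2 difference of Tagln was 1.01 (SE 0.26, limma adjusted p = 0.117). Pcsk7 overlaps the locus of Tagln, so the division of reads between both is uncertain. Pcsk7 was listed at 0 in all Lgr5-DTR stromal libraries and at 0, 3.01 and 0 FPKM in wild type.

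**Figure D2:**
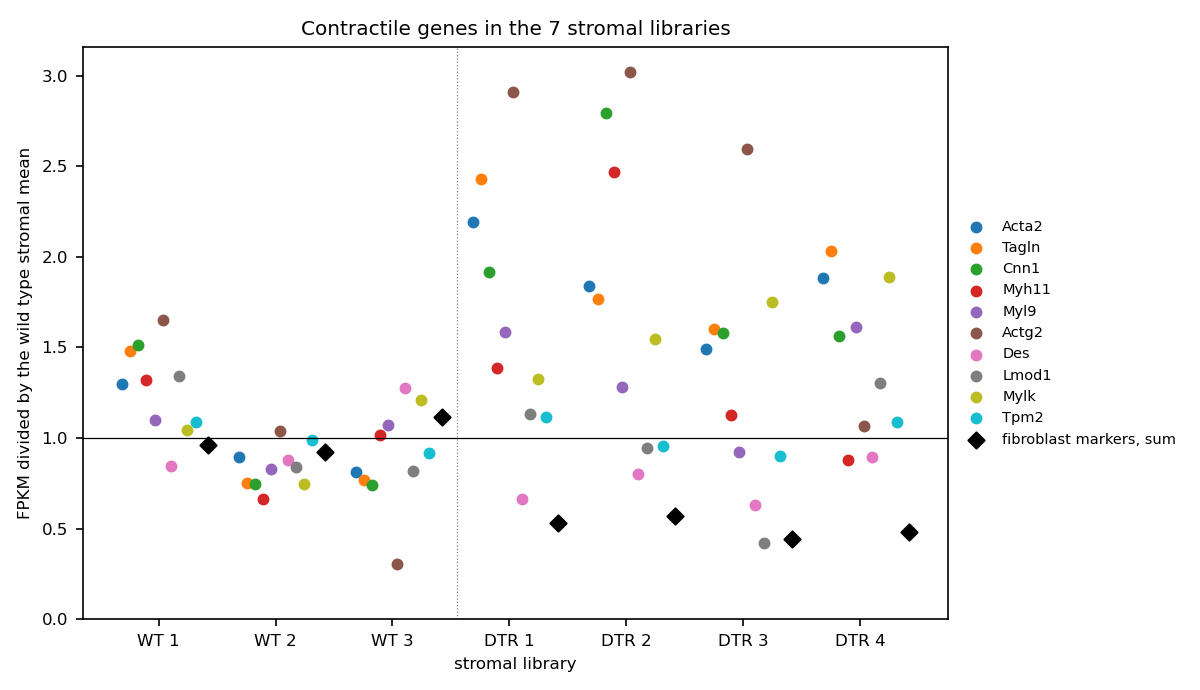
Each stromal library's FPKM divided by the wild type stromal mean of the same gene (vertical axis, linear scale), for the 10 contractile genes, where WT stands for wild type and DTR for Lgr5-DTR; circles are libraries and diamonds are the summed fibroblast markers scaled the same way. The Lgr5-DTR libraries of Acta2 lie between 1.49 and 2.20 times the wild type mean, while those of Des lie between 0.632 and 0.894 times.

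Cnn1, which encodes the calponin that binds actin and restrains myosin, had 14.9, 21.7, 12.3 and 12.1 FPKM in Lgr5-DTR stromal libraries against 11.7, 5.80 and 5.74 FPKM. The groups did not overlap, but the lowest Lgr5-DTR library was close to the highest wild type one, and the log2 difference was 0.92 (SE 0.29, limma adjusted p = 0.216). Actg2, the gamma actin of smooth muscle, had the largest difference and the widest spread, with 21.4, 22.2, 19.1 and 7.84 FPKM against 12.2, 7.63 and 2.25 FPKM. Here the fourth Lgr5-DTR library fell within the wild type range, and the log2 difference was 1.28 (SE 0.47, limma adjusted p = 0.308). Mylk had 6.27, 7.32, 8.31 and 8.95 FPKM against 4.95, 3.55 and 5.72 FPKM, with no overlap and a log2 difference of 0.61 (SE 0.23, limma adjusted p = 0.321). Each of these 5 genes had an unadjusted p under 0.05 (Acta2 0.00172, Tagln 0.00259, Cnn1 0.00926, Actg2 0.0200, Mylk 0.0227), where 11.5% of all tested genes did.

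The other stromal members overlapped between the groups. Myl9 had 91.0, 73.4, 53.1 and 92.7 FPKM against 63.2, 47.7 and 61.5 FPKM, a log2 difference of 0.40 (SE 0.24). Myh11 had 6.88, 12.3, 5.61 and 4.37 FPKM against 6.57, 3.28 and 5.06 FPKM, a log2 difference of 0.43 (SE 0.32). Des, at 47.7, 57.7, 45.6 and 64.5 FPKM in Lgr5-DTR and 60.9, 63.5 and 91.9 FPKM in wild type, was the member below wild type, with a log2 difference of -0.40 (SE 0.22). Tpm2 was close between the groups, with 45.6, 39.0, 36.8 and 44.3 FPKM against 44.5, 40.5 and 37.5 FPKM. Its log2 difference of 0.02 had a 95% interval from -0.40 to 0.44. Lmod1 was not tested, since it stayed below 1 FPKM in every library of the series, with 0.235 to 0.730 FPKM in Lgr5-DTR and 0.459 to 0.754 FPKM in wild type stromal cells.

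Over the 10689 genes tested in stromal cells 0.0655% were called higher and 1.1% lower, so few genes of any kind were called higher. All libraries of Lgr5-DTR were above all of wild type for 4 of the 9 tested members, against 1.8% of all tested genes. The median log2 difference of the 9 members was 0.61 beside -0.09 for all tested genes. Opposite trends in stromal and basal cells were known from these data when the members were named. Neither comparison with all genes is therefore independent evidence of a rise. Scaling the libraries by quantiles or by median ratios raised the median of all genes by 0.11, and no contractile gene changed sign under either scaling in any comparison of groups. Wild type stromal replicate 1 was the highest of its group for 8 of the 10 genes, all but Des and Mylk. Without it the log2 difference was 1.10 for Acta2, 1.33 for Tagln and 1.72 for Actg2, and still no member was called.

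Tagln and Myl9 fell in basal cells of Lgr5-DTR mice, and Acta2, Cnn1 and Tpm2 did not pass the test. Tagln had 34.4, 28.6 and 23.4 FPKM in wild type basal libraries and 8.19, 5.47 and 8.41 FPKM in Lgr5-DTR libraries, with wide separation between the groups. The wild type mean was 3.91 times the Lgr5-DTR mean, and the log2 difference was -1.84 (SE 0.21, limma adjusted p = 0.00178). Myl9 had 7.0, 8.84 and 12.2 FPKM in wild type and 3.50, 3.32 and 3.45 FPKM in Lgr5-DTR basal libraries, which lay close together below all wild type values. For Myl9 the ratio of wild type to Lgr5-DTR was 2.73 and the log2 difference -1.20 (SE 0.21, limma adjusted p = 0.00894).

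Acta2 in basal cells was low in both groups, at 3.30, 3.00 and 5.17 FPKM in wild type and 2.27, 1.95 and 1.41 FPKM in Lgr5-DTR. The groups did not overlap, but the log2 difference of -0.73 (SE 0.23, limma adjusted p = 0.0730) did not pass. Cnn1 had 3.64, 3.47 and 2.66 FPKM against 2.83, 2.94 and 0.673 FPKM, where the third Lgr5-DTR library set most of the difference of -0.53 (SE 0.33). Tpm2 spread over a wide range, with 141, 345 and 358 FPKM in Lgr5-DTR and 317, 205 and 191 FPKM in wild type. Its first Lgr5-DTR library was below all wild type libraries while the other two were above them, and the log2 difference was 0.16 (95% interval -0.67 to 1.00).

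The remaining 5 members did not reach 1 FPKM in 3 basal libraries and were not tested. Des had 0.189, 0.335 and 0.391 FPKM in wild type and 0.0124 FPKM or less in Lgr5-DTR, where 1 library listed it at 0. Mylk had 0.866, 0.590 and 0.386 FPKM in wild type and 0.205, 0.191 and 0.364 FPKM in Lgr5-DTR. At such levels the transcripts were near the limit of detection and no fold is given. Over all 6 basal libraries Myh11 had at most 0.612 FPKM, Actg2 0.251 FPKM and Lmod1 0.156 FPKM.

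Of the 5 members tested in the basal population, 2 were called lower, where 4.46% of the 9755 tested genes were. All Lgr5-DTR libraries were below all wild type ones for 3 of the 5, against 13.7% of all tested genes, and the median log2 difference was -0.73 beside 0.02 for all genes. Because the members were named with opposite trends in stromal and basal cells known from these data, these comparisons are no independent evidence of a fall. Both calls were lost when the 6 groups were fitted together (limma adjusted p of 0.247 for Tagln and 0.0914 for Myl9), and the call of Myl9 was lost without Lgr5-DTR basal replicate 2 (0.0512). Tagln, at chr9:45929628-45936058 on mm10, shares its locus with Pcsk7, so the division of reads between both is uncertain. Pcsk7 had 5.73, 3.64 and 3.87 FPKM in Lgr5-DTR basal libraries and 4.01, 0 and 3.62 FPKM in wild type, and the wild type library with Pcsk7 listed at 0 had a Tagln value between those of the other two.

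**Figure D3:**
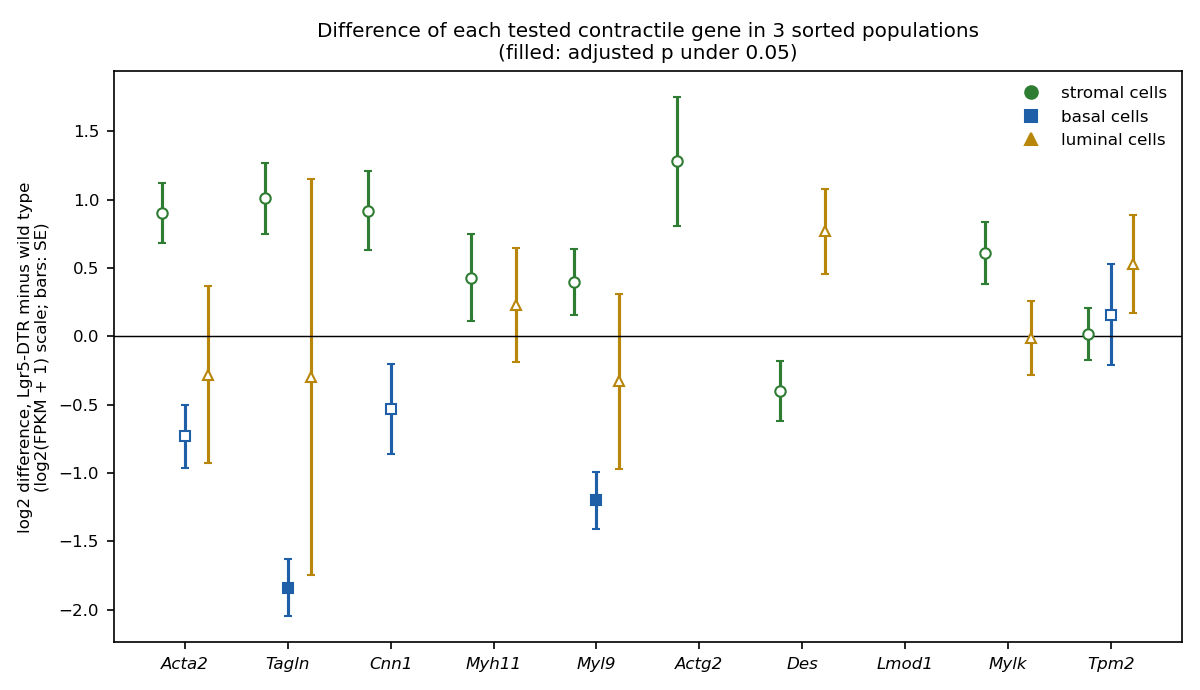
Log2 difference of Lgr5-DTR minus wild type on the log2(FPKM + 1) scale, for each contractile gene tested in stromal (circles), basal (squares) and luminal cells (triangles); bars are the SE and filled symbols have a limma adjusted p under 0.05. The stromal values of Acta2, Tagln, Cnn1 and Myl9 lie above 0 and their basal values below 0, and basal Tagln and Myl9 are the filled symbols.

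The difference between the stromal and the basal response was itself larger than the spread for 3 genes. Tested as an interaction of group and population, the stromal minus basal difference was 2.85 for Tagln (SE 0.37, limma adjusted p = 0.000495), 1.63 for Acta2 (SE 0.32, adjusted p = 0.0125) and 1.60 for Myl9 (SE 0.33, adjusted p = 0.0152). For Tagln all 4 Lgr5-DTR stromal libraries were above wild type and all 3 basal libraries below it, and the same held for Acta2. For Myl9 the basal groups were apart while the stromal groups overlapped. Cnn1 had a value of 1.45 (SE 0.46, limma adjusted p = 0.124), and Tpm2 had -0.14 (SE 0.41). Cnn1 passed when libraries of 1 genotype with the same title number were taken as paired (1.75, SE 0.45, limma adjusted p = 0.0343). The labels do not state such a pairing. Without it 3 of the 5 members tested in both populations were called, where 0.891% of tested genes were called in that direction. The median over the 5 was 1.60 beside -0.08 for all tested genes. In 1 fit over all 6 groups none of the 3 passed, with limma adjusted p between 0.167 and 0.284, and Myl9 alone was lost without Lgr5-DTR basal replicate 2 (0.0513) or wild type basal replicate 3 (0.0529). The contractile genes were named for study with a trend of this kind in these data already known, so these tests are no independent evidence of it.

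In luminal cells no contractile gene was called of 7 tested, where limma called 3.14% of tested genes, and Des was the member with an unadjusted p under 0.05, which 22.7% of tested genes had. Des had 3.03, 2.31 and 4.59 FPKM in Lgr5-DTR and 0.907, 2.70 and 1.12 FPKM in wild type, a log2 difference of 0.77 (SE 0.31, limma adjusted p = 0.187) with overlap between the groups. Acta2 had 7.55, 8.31 and 30.2 FPKM in Lgr5-DTR and 6.49, 24.7 and 21.9 FPKM in wild type. Its values were far apart within each group, and its log2 difference was -0.28 (SE 0.65).

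Myl9 and Tagln were uneven in the same luminal libraries. Myl9 had 7.84, 10.6 and 40.8 FPKM in Lgr5-DTR and 10.4, 30.7 and 22.5 FPKM in wild type. Tagln was listed at 0 in the first library of each group, and had 4.14 and 17.3 FPKM in the other Lgr5-DTR libraries and 14 and 10.7 FPKM in the other wild type libraries. Both libraries with Tagln listed at 0 had high values of the overlapping Pcsk7, at 9.62 FPKM in Lgr5-DTR and 11.8 FPKM in wild type, and Pcsk7 was also at 9.71 FPKM in the Lgr5-DTR library with the highest Tagln. Lgr5-DTR luminal replicate 3 was the highest of its group for 8 of the 10 genes, and wild type luminal replicate 1 was the lowest of its group for 7.

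**Figure D4:**
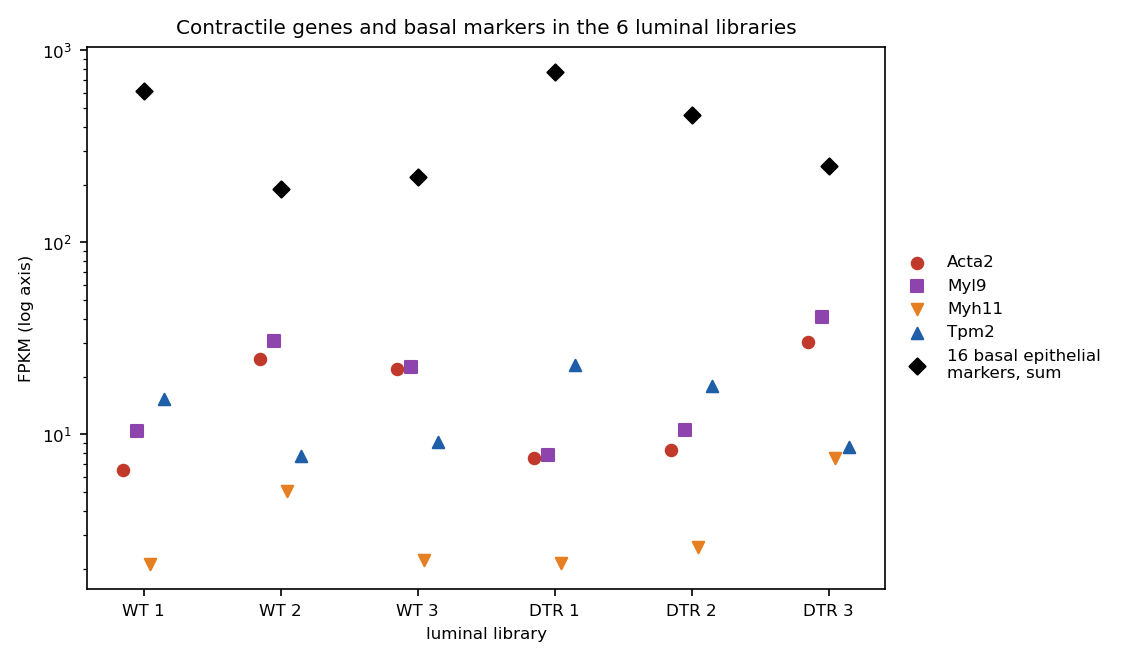
FPKM (log axis) of Acta2, Myl9, Myh11 and Tpm2 in each of the 6 luminal libraries on the horizontal axis, with the summed FPKM of 16 basal epithelial markers as diamonds, and with WT for wild type and DTR for Lgr5-DTR. The 3 libraries with the lowest marker sums (189 to 249 FPKM) have the highest Acta2 and Myl9, and the library with the highest sum (775 FPKM) has the highest Tpm2.

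Tpm2 followed another order in luminal cells. It had 22.9, 17.8 and 8.64 FPKM in Lgr5-DTR and 15.3, 7.76 and 9.17 FPKM in wild type, with a log2 difference of 0.53 (SE 0.36). The summed level of 16 basal epithelial markers was 775, 459 and 249 FPKM in the same Lgr5-DTR libraries and 617, 189 and 219 FPKM in the wild type ones, so that in each group the library highest in basal markers was also highest in Tpm2. The 12 pericyte markers summed to 45.9 to 97.8 FPKM in Lgr5-DTR and 22.7 to 39.0 FPKM in wild type luminal libraries, with Rgs5 between 5.20 and 10.2 and between 1.94 and 5.61 FPKM, and 1 of the 12 was at 0 in every library of each group. The part of other cells in the luminal values was not tested. Neither the difference between the stromal and the luminal response (7 tested, where 2.51% of genes were called) nor that between the basal and the luminal response (4 tested, 4.26%) was called for any member.

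Lists of related genes gave few calls in stromal cells, where 1.1% of all tested genes were called lower and 0.0655% higher. Of 24 tested structural genes of smooth muscle outside the 10, such as adhesion and sarcoglycan genes, 1 was called lower and 0 higher by limma, with a median of 0.00. The called gene, Pdlim3, which encodes a protein of actin-anchoring structures, fell to 12.5 ± 5.37 FPKM (SD, n = 4) in Lgr5-DTR from 127 ± 85.6 FPKM (n = 3) in wild type cells (log2 difference -3.13, SE 0.41, limma adjusted p = 0.00437). Among 22 genes of contraction signalling 1 was called lower and 0 higher, with a median of -0.21, and 3 of the 22 lay above 0, where 38.5% of all tested genes did. The called gene was Ppp1r14a, encoding the inhibitor CPI-17 of myosin phosphatase, which fell from 11.9 to 2.57 FPKM (log2 difference -1.83, SE 0.33, limma adjusted p = 0.0227). Mylk, whose product adds the phosphate to the light chain, and Ppp1r14a, whose product keeps it there, thus differed from wild type in opposite directions, and of these Ppp1r14a passed the test.

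Receptors and regulators gave 0 calls in stromal cells. Of the 9 tested receptors for contractile signals, the smallest p values belonged to Ptger2, a prostaglandin receptor gene at 1.00 (limma adjusted p = 0.221), and Adra1b, an adrenergic receptor gene at -0.85 (adjusted p = 0.280). Of 17 transcriptional regulators the first were Csrp2 (-0.60) and Klf4 (-0.73), and Srf differed by -0.25 (SE 0.28). Myocd, which encodes the smooth muscle cofactor myocardin, stayed below 0.448 FPKM in every stromal library and was not tested. Of 20 wider targets of SRF and its cofactors, Ctgf, a secreted matrix protein gene, had a log2 difference of -1.17 (adjusted p = 0.0850) and Tpm1, the alpha tropomyosin, 0.55 (adjusted p = 0.297). Of 14 related actin, myosin, calponin and tropomyosin genes used outside smooth muscle 0 were called, and Actb (-0.12) and Actg1 (-0.20) were near 0.

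In basal cells several related genes fell, where limma called 435 of all 9755 tested genes lower (4.46%) and 1069 in either direction. Of 21 structural genes 6 were called lower and 0 higher, with a median of -0.38 beside 0.02 for all genes. They included Parva, encoding the adhesion protein alpha-parvin, from 20.7 to 11.7 FPKM (log2 difference -0.78), Nexn, encoding the actin-binding nexilin, from 2.68 to 0.781 FPKM (-1.07), Pgm5, encoding the adhesion protein aciculin, from 2.97 to 0.927 FPKM (-1.06), and Sgcd, a sarcoglycan gene at 1.28 FPKM in wild type and listed at 0 in all 3 Lgr5-DTR libraries. The other 2, named after their values were seen, were Fhl1 (181 to 90.6 FPKM) and Smtn, the smoothelin gene (430 to 281 FPKM). Of the 6, Sgcd reached 1 FPKM in wild type alone and so had to differ. Of 18 tested genes of contraction signalling 3 were called lower and 1 higher. They include Ppp1r12a (-0.77), lower, which encodes the targeting subunit of myosin phosphatase, and Arhgef1 (0.70), higher, which encodes a guanine nucleotide exchange factor. Of 5 receptors 2 were called lower, the bradykinin receptor gene Bdkrb2, from 20.3 to 7.25 FPKM (-1.39), and the prostaglandin receptor gene Ptger4, from 40.7 to 19.3 FPKM (-1.06).

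Targets of SRF outside the 10 genes gave 3 calls in basal cells, all lower, of 20 tested, where 4.46% of all tested genes were called lower. Cyr61, which encodes a secreted matrix protein, fell from 2665 to 923 FPKM (log2 difference -1.56), Ctgf from 109 to 15.8 FPKM (-3.01) and Filip1l from 5.84 to 1.93 FPKM (-1.24). Both matrix protein genes are also known targets of YAP. The Srf transcript had means of 54.2 FPKM in wild type and 35 FPKM in Lgr5-DTR basal cells, a log2 difference of -0.65 (SE 0.20, limma adjusted p = 0.0670), and the other regulator with the smallest p was Tcf21 (-0.56). Of 14 related genes used outside smooth muscle 1 was called, the nonmuscle heavy chain gene Myh10, from 3.86 to 1.32 FPKM (-1.09). The abundant Tpm1 (1238 and 1247 FPKM), Tpm4 (781 and 819 FPKM) and Actb did not pass, with log2 differences of 0.01, 0.05 and 0.24.

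**Figure D5:**
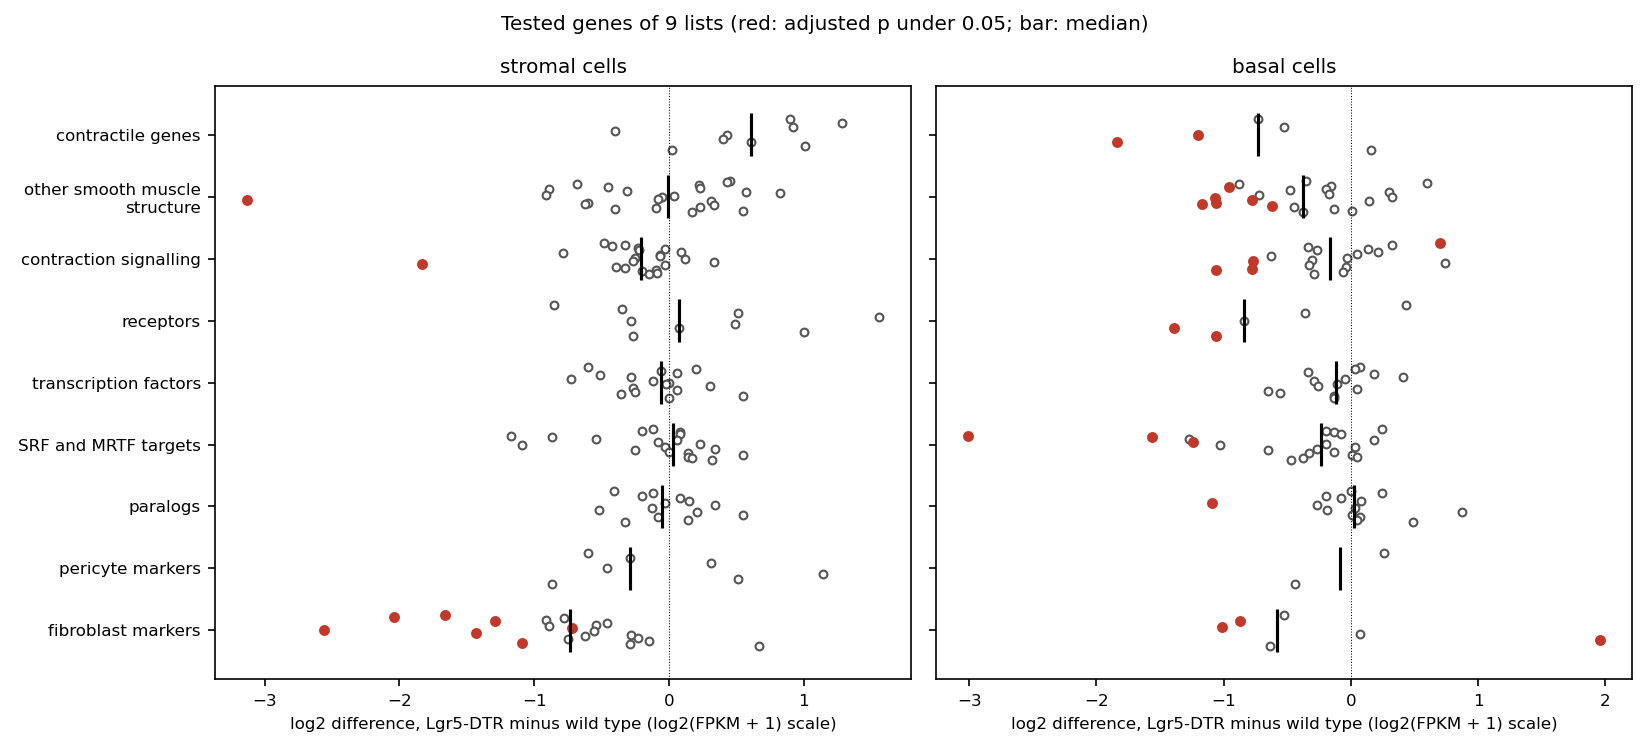
Log2 difference of Lgr5-DTR minus wild type of every tested gene in the lists related to contraction, in stromal and basal cells; points are genes, red where the limma adjusted p is under 0.05, and vertical bars are list medians. The contractile genes have a median of 0.61 in stromal and -0.73 in basal cells.

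Markers of other cell types were followed in the same libraries. In stromal cells 7 of 20 tested fibroblast markers were called lower, where 1.1% of all tested genes were, and 0 higher. The 7 were led by Dpt (-2.56), Clec3b (-2.04), Gsn (-1.43) and C3 (-1.66). The 20 markers had a median of -0.73. Their summed level was 16990 to 20510 FPKM in wild type and 8081 to 10470 FPKM in Lgr5-DTR stromal libraries, and no marker was at 0. The 12 pericyte markers summed to 58.1 to 68.5 FPKM in wild type and 38.2 to 68.1 FPKM in Lgr5-DTR, with 7 tested and 0 called, a median of -0.29, and the pericyte gene Rgs5 below 0.174 FPKM in every stromal library. Those with the smallest p were Pdgfrb (-0.87, limma adjusted p = 0.238) and Abcc9 (-0.60). Skeletal muscle markers summed to 8.53 to 20.1 FPKM in wild type and 7.67 to 11.4 FPKM in Lgr5-DTR stromal cells. The part of a shift among stromal cell types in the contractile values was not tested.

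In basal cells the 20 fibroblast markers summed to 1044 to 1251 FPKM in wild type and 709 to 1180 FPKM in Lgr5-DTR, and most of that was Dcn, which fell from 818 to 426 FPKM (log2 difference -1.01, limma adjusted p = 0.0446). Of 6 tested fibroblast markers Col3a1 was also called lower (-0.87), from 1.36 to 0.285 FPKM, and Ly6c1 higher (1.96). Col3a1 reached 1 FPKM in wild type alone and so had to differ. Levels differed widely among the 20 fibroblast markers. Pdgfra had 0.120 to 0.363 FPKM in wild type and 0.0457 to 0.263 FPKM in Lgr5-DTR basal libraries, and Col1a1 had 0.321 to 0.459 and 0.0352 to 0.272 FPKM. Of the 20, 6 reached 1 FPKM in every wild type basal library and 4 in every Lgr5-DTR basal library. Pericyte markers summed to 8.41 to 11.3 FPKM in wild type and 6.16 to 13.2 FPKM in Lgr5-DTR basal libraries, with Rgs5 at 0.0678 to 0.792 FPKM in Lgr5-DTR and 0.194 to 0.394 FPKM in wild type. Among 16 basal markers 4 were called lower, including the transcription factor gene Trp63 (37.8 to 15.4 FPKM), and 2 higher. Of 14 tested luminal markers 5 were called higher and 0 lower, led by Cldn3 (24.3 to 280 FPKM). Of all 9755 genes tested in basal cells 1069 were called, 435 of them lower. Summed basal markers were 11080 to 14440 FPKM in wild type and 8838 to 11420 FPKM in Lgr5-DTR, and summed luminal markers 5619 to 6530 and 7176 to 9416 FPKM. Endothelial markers summed to 27.5 to 51.7 FPKM in Lgr5-DTR and 13.4 to 23.5 FPKM in wild type basal libraries, with 9 of 9 tested above 0 and 0 called by limma, a median of 0.65, and Pecam1 at 2.92 to 8.32 and 1.42 to 2.01 FPKM. Macrophage markers summed to 20.5 to 29.5 and 16.6 to 25.4 FPKM, and 2 of 5 tested were called higher, Lyz2 (1.21) and C1qc (0.95), named after their values were seen. Whether a changed mix of cells in the basal sort takes part in the lower Tagln and Myl9 was not tested.

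Of the 10 members, 8 had 1 annotated transcript, Myh11 had 2 and Tpm2 had 3. Of Tpm2, NM_001277876 carried 100% of the FPKM in stromal and in wild type basal cells and 92.8% in Lgr5-DTR basal cells. The remainder there was NM_001277875, listed at 0 in all wild type basal and all stromal libraries and at 21, 39.8 and 0 FPKM in Lgr5-DTR basal libraries. Cufflinks divides reads between such transcripts by estimation, so this share is uncertain. Of Myh11, located at chr16:14194527-14291408 on mm10, NM_001161775 (6593 bases) carried 98.4% of the FPKM in Lgr5-DTR and 95.1% in wild type stromal cells, and 82.4% in wild type luminal cells. The longer NM_013607 (6632 bases) held the rest. Sequence shared with other genes was small, with 0.352% of the 50-base stretches of Acta2 also in Actg1 and related genes, 0.400% of those of Myh11 in Myh9 or Myh10, and 0 for the other matched members.

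Some genes followed the contractile genes closely in pattern. The likeness was Pearson's r with the mean of 9 contractile genes, all but Lmod1, each scaled over the libraries on log2(FPKM + 1), and is given as a description. Over all 19 libraries, which largely reflects the contrast of stroma and epithelium, the 8 most like of 12350 genes were Ppp1cc, Vegfc, Cpxm2, Mir143hg, Stac2, Dnm3os, Lin7a and Dclk1, each at 0.97. Ppp1cc, which encodes a catalytic subunit of protein phosphatase 1, had 75.6 to 84.4 FPKM in wild type and 82.2 to 118 FPKM in Lgr5-DTR stromal cells and 35.3 FPKM or less in basal cells. Tpm2 had an r of -0.21 with that mean. Within the 7 stromal libraries, over 10685 genes, the most like were Cdh5 (0.95), which encodes an endothelial cadherin, Epha2 (0.93), Morc4 (0.90), Faap100 (0.90), Nt5c3b (0.89), Arhgap27 (0.89), Gxylt1 (0.88) and Prcc (0.88). Cdh5 was low, at 0.724 to 1.66 FPKM in wild type and 1.79 to 2.05 FPKM in Lgr5-DTR stromal libraries, and Des had an r of -0.50. With 7 libraries in 2 groups, the same genotype contrast underlies each of these values.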

How the data were processed

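RNA from flow-sorted cells was reverse transcribed with a low-input SMART-Seq kit, made into Nextera XT libraries and sequenced on a HiSeq instrument, per the labels' protocols. The authors deposited FPKM for each RefSeq transcript, made with TopHat2 and Cufflinks on mm10, per the submitters' processing notes. Versions and alignment settings are not given in the sources used here. Read coverage, a signal also in the deposited tables per the file headers, was used with transcript length for the depth alone. FPKM are not counts, so no counting interval was made.

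FPKM were summed per gene symbol over the 19 tables. Genes with 3 libraries of the comparison at 1 FPKM, in both populations for an interaction, and with no failed or capped estimate were fitted on log2(FPKM + 1), which understates the change of low genes, with limma 3.58.1 (trend, robust; R 4.3.3, statmod 1.5.0), adjusting by Benjamini-Hochberg over all genes tested, and checked on simulated data. Only the groups compared entered a fit. Joins and levels used numpy 2.4.6 and pandas 2.3.3 under Python 3.11.15. Genes were described by their overlap of groups, list counts and medians, with no set test.

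The members and lists were chosen with earlier results of these data known. Named genes were all members, up to 4 called genes of each related list with the smallest adjusted p in stromal and basal cells (with none called, the 2 with the smallest p), and the 8 genes most like the members in pattern. Alternatives were other pseudocounts, filters, scalings, the highest transcript, 1 fit over all groups, blocks and leaving out each library. In 7 of the 19 tables the status column was of another kind, and that set served as a covariate. Neither sample numbers nor numbers in the titles are stated to pair libraries, and the labels do not explain the latter. Deviations of libraries with the same sample number correlated at 0.38, 0.49 and -0.05 in stromal cells. The values were -0.53, -0.25 and -0.38 in basal and 0.38, -0.11 and 0.26 in luminal cells. Stromal and basal libraries of 1 genotype with the same title number correlated at 0.18, 0.37 and 0.41 over 3 pairs. Other pairs by title number gave -0.06 to 0.23. These values do not settle either pairing. Protein sequences were not used here. Some genes of the contraction signalling list are not reported here.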

Additional observations from a re-analysis of the deposited data

Results flagged for a closer look

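For 3 contractile genes the difference of Lgr5-DTR from wild type was itself different between stromal and basal cells, by the limma interaction test. The stromal minus basal value was 2.85 for Tagln, 1.63 for Acta2 and 1.60 for Myl9 on the log2(FPKM + 1) scale. In stromal cells the log2 differences were 1.01, 0.90 and 0.40, and in basal cells -1.84, -0.73 and -1.20. Of these 6 values the basal ones of Tagln and Myl9 passed the test within their own population. The genes were named for study with such a trend in these data known, so the test is no independent evidence of it. Of all tested genes 0.891% were called in that direction, and in 1 fit over all 6 groups none of the 3 passed (limma adjusted p of 0.167 to 0.284).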

How the results depend on the processing

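The count of contractile genes called in stromal cells was 0 and became 4 with the sample number as a replicate block. The 4 were Acta2, Tagln, Cnn1 and Actg2 (limma adjusted p = 0.00906, 0.00595, 0.0210 and 0.00797). The labels do not state that these numbers pair libraries. With that block 1041 of all tested genes were called in place of 125. Own numbers correlated best in 2 of 3 libraries in stromal, 0 of 3 in basal and 1 of 3 in luminal cells. In basal cells the count of 2 became 0 in 1 fit over all 6 groups and 1 with the replicate block. Leaving out 1 library gave 1 to 3, with Acta2 called without Lgr5-DTR basal replicate 1 (-0.83, adjusted p = 0.0283). Acta2 also passed with quantile scaling (adjusted p = 0.0492). For the stromal minus basal difference the count of 3 became 0 in the fit over all 6 groups, 4 with the title numbers of the labels as a block (Cnn1 added, adjusted p = 0.0343, with 457 of all genes called in place of 268), and 2 to 3 without 1 library. Luminal counts stayed at 0 in the 17 alternatives run. Wild type counts were 5 to 9 (stromal minus basal), 6 to 9 (stromal minus luminal) and 2 to 5 (basal minus luminal) without 1 library. A gene at 1 FPKM in 1 population alone is no longer tested once a library of that population is left out. Myh11, Actg2, Des and Mylk kept their stromal minus basal calls in every alternative that tested them. These are the 4 members that reached 1 FPKM only in stromal cells in that comparison and so had to differ. Their kept calls are therefore no sign of stability. With a mean of at least 5 FPKM, which tests fewer genes, the count was 4 for stromal minus luminal and 3 for basal minus luminal.

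Signs changed for values that were not called. Tpm2 in stromal cells was -0.02 with the replicate block and -0.04 to 0.08 without 1 library, in basal cells -0.07 to 0.60 without 1 library, and in the stromal minus basal difference 0.06 with the title-number block and -0.58 to 0.09 without 1 library. In luminal cells Mylk was 0.01 with a pseudocount of 0.1 and Myh11 -0.06 with the status set as covariate. Without 1 luminal library the ranges were -0.22 to 0.13 for Mylk, -0.22 to 0.54 for Myh11, -0.88 to 0.06 for Acta2, -1.54 to 0.79 for Tagln and -1.01 to 0.11 for Myl9. Without 1 library the stromal minus luminal difference of Myh11 was -0.12 to 0.65, and the basal minus luminal differences were -0.74 to 0.07 for Tpm2 and -0.79 to 0.15 for Acta2. Except where stated, the cause was not tested. Over all genes, 125 were called in stromal cells (31 to 1041 over the alternatives), 1069 in basal (213 to 2231) and 330 in luminal cells (0 to 876). The title-number block was not run for wild type stromal against basal or luminal cells, which share 1 such number, nor the status set for stromal cells, where it is 1 library, or for the wild type comparisons with stroma.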

Other observations

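In luminal cells of Lgr5-DTR mice related genes were higher while the contractile genes were not called. The genes in this paragraph were named after their values were seen. Of all tested genes limma called 3.14% in this comparison. Of 22 tested structural genes of smooth muscle limma called 3 higher and 0 lower, Itga7 (log2 difference 3.64) and Itga5 (2.04), which encode integrins, and Cald1 (1.11), which encodes caldesmon. The endothelin receptor genes Ednra (1.26) and Ednrb (2.57) were 2 of 6 receptors and were both called higher, and 2 of 20 contraction signalling genes, Rgs2 (1.21) among them. Of 10 pericyte markers Kcnj8 (1.76) and Pdgfrb (1.70) were called higher, and of 10 fibroblast markers Col1a1 (2.56), Col1a2 (1.95), Col6a1 (1.78), Col6a2 (1.31) and Col3a1 (1.19). Col1a1 lay between 18.1 and 39.8 FPKM in Lgr5-DTR and between 3.23 and 5.45 FPKM in wild type luminal libraries. Schwann cell markers summed to 103 to 233 FPKM in Lgr5-DTR and 62.4 to 81.3 FPKM in wild type luminal libraries. Macrophage markers summed to 33.0 to 143 FPKM in Lgr5-DTR and 22.3 to 28.7 FPKM in wild type luminal libraries, with 7 of 7 tested above 0 and Lyz2 called higher (2.37). The part of such cells in these values was not tested.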
